A study of Homo sapiens with 8 samples.

Results

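The BBSome is a coat-like complex of 8 proteins that carries membrane receptors out of and into the primary cilium, the sensory antenna of most vertebrate cells. Its subunit genes are BBS1, BBS2, BBS4, BBS5, BBS7, TTC8 (also called BBS8), BBS9 and BBIP1, and inherited loss of a subunit causes Bardet-Biedl syndrome. These 8 genes were chosen by membership of the complex, and the set was proposed with the strong RFX7 peak at TTC8 already known from these lists, so counts and levels over the set are given as a description and without a test. All peaks within 10 kb of the 8 gene bodies were taken, among 20037 protein-coding genes of the RefSeq annotation GRCh38.p14. This gave 1 of the 1234 peaks called after Nutlin-3a and 0 of the 556 called with DMSO.

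RPE-1 cells are human retinal pigment epithelial cells made immortal with telomerase, an established line widely used to study the primary cilium. Cultures were treated for 24 h with Nutlin-3a at 10 µM, which frees p53 from its inhibitor MDM2, or with the solvent DMSO, and chromatin bound by RFX7 was precipitated with an antibody and sequenced. The 8 samples are 2 RFX7 precipitates and 2 inputs for each treatment, not stated to be separate cultures, and the peaks of a treatment come as 1 list, so the values carry no replicate error. Sequencing depth is unknown, and a gene without a peak is one where none was called. Neither list describes the state of the cilium in these cells.

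RFX proteins share a winged-helix DNA-binding domain that reads the X-box, a sequence built of a half-site and its inverted copy. RFX2 and RFX3 in vertebrates, and their nematode relative DAF-19, are known for switching on genes of the cilium, BBSome subunits among them, through X-boxes in promoters. RFX7 belongs to another branch of the family. The comparison asks whether RFX7 was detected at BBSome genes other than TTC8.

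TTC8 was the BBSome gene with an RFX7 peak, and its peak was in the Nutlin-3a list alone. That is not particular to TTC8. Of 20037 protein-coding genes, 270 had a Nutlin-3a peak within 10 kb and 13 a DMSO peak. The sequence below is the 250 bases before a RefSeq start of TTC8, all of which lie inside the peak (GRCh38.p14, chr14:88824401-88824650, plus strand). It is shown because the summit falls in its last 13 bases. The capitals mark an RFX half-site, here the letters GTTGCC.

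TTC8: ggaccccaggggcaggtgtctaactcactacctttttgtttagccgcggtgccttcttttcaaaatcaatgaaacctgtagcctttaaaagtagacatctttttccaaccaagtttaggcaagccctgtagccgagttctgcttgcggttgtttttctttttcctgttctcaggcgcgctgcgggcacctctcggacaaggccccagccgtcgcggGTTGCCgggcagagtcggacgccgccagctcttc

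TTC8 encodes a subunit with tetratricopeptide repeats, helical modules that bind other proteins. RefSeq gives the gene at chr14:88824153-88881079, and the promoter table lists 2 starts for it. The peak spanned chr14:88824343-88824894, a width of 552 bp against a list median of 161 bp, and its summit was at base 88824638. The whole peak therefore lay within the gene, from 190 to 741 bases past the gene's first base. The summit was 485 bases downstream of the outer start and 13 bases upstream of the inner start, at base 88824651. The promoter window of the inner start, which runs from 250 bases before it to 50 after, lay entirely in the peak and made up 54.3% of it. The window of the outer start did not overlap the peak.

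The peak had a fold enrichment of 15.7, a −log10 p of 181 and a −log10 q of 175, as the authors' peak caller gave them. It ranked 5 of 1234 by fold enrichment, against a list median of 2.77, and 58 by −log10 p, against a median of 23.8. A region was called dense when at least 5 other regions of the lists lay within 500 kb, and 809 of the Nutlin-3a peaks were in such regions. The TTC8 peak had 0 such neighbours, and among the 425 peaks outside dense regions it ranked 5 by fold enrichment and 7 by −log10 p. Its rank by −log10 p was thus much lower in the whole list than outside dense regions, while its rank by fold enrichment was the same in both. Among the 235 Nutlin-3a peaks within 10 kb of a protein-coding gene, with medians of 4.47-fold and −log10 p of 18.2, it ranked 5 and 7.

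On chromosome 14 the TTC8 peak stood above all others of its list. The other 13 Nutlin-3a peaks there had fold enrichments of 2.90 to 8.82 (median 3.72) and −log10 p of 5.43 to 48.9 (median 11.0). The nearest of them was 1.22 Mb away, at 3.36-fold. The DMSO list held 2 peaks on this chromosome, and the nearer was 1.78 Mb from the TTC8 peak, at 4.46-fold. In the DMSO list no peak overlapped the TTC8 peak, which says that no peak was called there and not that RFX7 was absent.

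**Figure D1:**
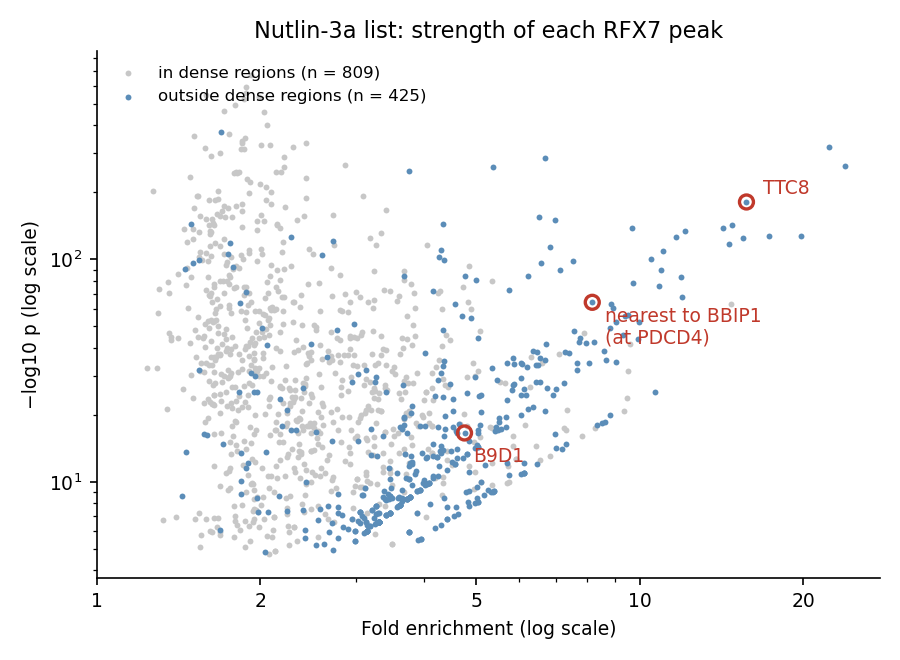
Fold enrichment (x axis, log scale) against −log10 p (y axis, log scale) of each of the 1234 Nutlin-3a peaks, as deposited. Grey points are the 809 peaks in dense regions and blue points the 425 others, and red rings mark the peaks at TTC8 (15.7-fold, −log10 p 181), at PDCD4 near BBIP1 (8.17-fold, 64.1) and at B9D1 (4.75-fold, 16.6).

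The other 7 BBSome genes had no peak within 10 kb in either list. With TTC8, that is 1 of 8 genes (12.5%) in the Nutlin-3a list, beside 1.35% of all protein-coding genes (270 of 20037, 95% Wilson interval 1.20 to 1.52%). In the DMSO list it is 0 of 8, and the limit set by a count of 0 is a share of 37.5%, beside 0.0649% of protein-coding genes (13 of 20037, interval 0.0379 to 0.111%). The TTC8 peak was known when the set was made, so the Nutlin-3a share is not evidence about the set. Without TTC8 the count was 0 of 7, which is too few genes to set against a share of 1.35%.

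BBS2, BBS7 and BBS9 form the core on which the complex is built, after folding by a chaperonin. The nearest Nutlin-3a peak was 1.25 Mb from BBS2 (chr16:56470403-56520024), at 4.37-fold. For BBS7 (chr4:121824329-121870474) it was 3.23 Mb away, at 9.92-fold, and for BBS9 (chr7:33129285-33635767) 6.55 Mb away, at 3.15-fold. BBS9 is the longest of the 8 genes, at 506 kb against 20.6 kb for BBIP1, and no peak lay anywhere in it. In the DMSO list the nearest peaks were 10.0 Mb from BBS2, 42.7 Mb from BBS7 and 24.6 Mb from BBS9. None of the core genes had a peak in its own neighbourhood in either treatment.

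BBS1 binds the small GTPase ARL6, which brings the complex to membranes, BBS4 is the other subunit with tetratricopeptide repeats, and BBS5 binds phosphoinositide lipids. BBS1 (chr11:66510635-66533598) had its nearest Nutlin-3a peak at 1.02 Mb. For BBS4 (chr15:72686207-72738473) the nearest was 1.64 Mb away, at 3.70-fold, and for BBS5 (chr2:169479494-169506655) 8.20 Mb away, at 1.97-fold. In the DMSO list these distances were 12.5, 52.9 and 8.20 Mb. At BBS5 alone of the 8 genes the nearest peaks of the lists were about equally far.

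BBIP1 encodes the smallest subunit and was the member just outside the 10 kb limit. Its gene (chr10:110898730-110919366) lay 26.1 kb from a Nutlin-3a peak of 8.17-fold and −log10 p of 64.1 (chr10:110871596-110872610), which was the wide peak at the start of PDCD4, with its summit 3 bases from that start. PDCD4, an inhibitor of translation, runs towards BBIP1 and overlaps its last part. The summit was 47.2 kb from the nearer BBIP1 start. The nearest DMSO peak was 15.0 Mb away.

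**Figure D2:**
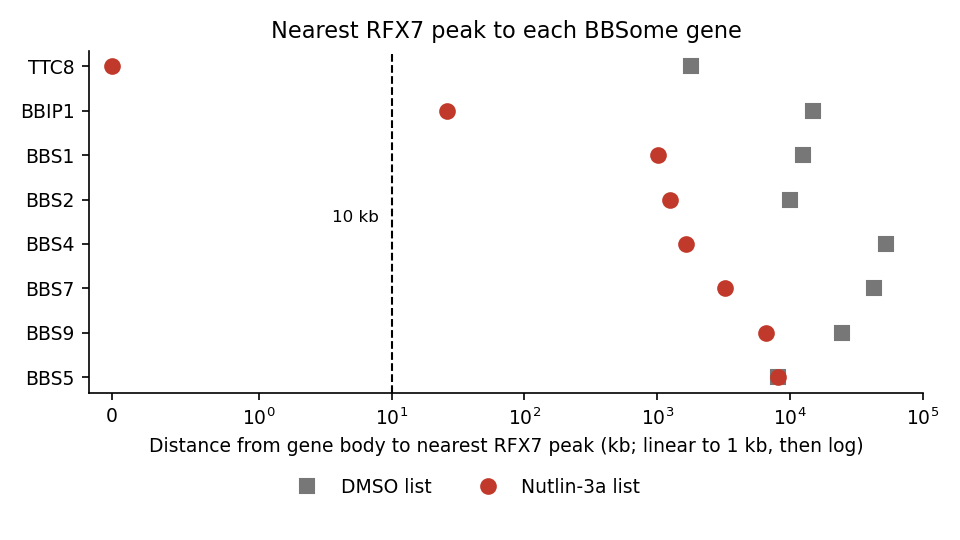
Distance from each of the 8 BBSome gene bodies to the nearest peak (x axis, kb, linear up to 1 kb and logarithmic beyond), with circles for the Nutlin-3a list and squares for the DMSO list. TTC8 holds its Nutlin-3a peak at distance 0, BBIP1 follows at 26.1 kb beyond the dashed 10 kb limit, and the other 6 lie between 1.02 and 8.20 Mb.

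Distances alone did not set the members apart. Of the 8 genes, 6 had their nearest Nutlin-3a peak more than 1 Mb away, beside 73.4% of protein-coding genes, and the median distance was 1.44 Mb beside 2.53 Mb. In the DMSO list all 8 were more than 1 Mb from a peak, beside 97.5%, with medians of 13.8 and 21.3 Mb. Within 1 Mb of a Nutlin-3a peak were 2 of the 8, beside 26.6% of protein-coding genes.

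The promoters of the members were read for RFX letters. RefSeq promoter windows of 300 bases were found for 7 of the 8 genes, 9 windows in all, since TTC8 and BBIP1 have 2 starts each, and BBS9 was not matched. A half-site was GTTGCC or GTTGCT on either strand. It was present in 5 of 9 windows (55.6%, 95% Wilson interval 26.7 to 81.1%), in both of TTC8 and in 1 each of BBS1, BBS5 and BBIP1. Over all 35116 promoter windows the share was 23.1% (8128, interval 22.7 to 23.6%). The 9 windows of the members are not independent, since TTC8 and BBIP1 give 2 each and those of BBIP1 overlap. Their interval is therefore too narrow. By gene, 4 of 7 members held it, beside 27.1% of the 27305 genes with a promoter window, noncoding ones among them. The difference was not tested. No half-site by this definition was found in the windows of BBS2, BBS4 and BBS7. A match is a description of letters and not a binding site.

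The half-site stretches of the members with GTTGCC near a start, and the pair in BBIP1, are set side by side here, because TTC8 had a peak and the others did not. Each is written 5′ to 3′ in the direction of its gene, with the half-sites in capitals. In BBIP1 both copies of the pair are in capitals, and of these GGCAAC alone is a half-site as defined above. Positions in GRCh38.p14 are chr14:88824600-88824639 for TTC8, chr11:66510619-66510658 for BBS1, chr2:169479463-169479502 for BBS5, all on the plus strand, and chr10:110919142-110919171 for BBIP1, on the minus strand.
TTC8: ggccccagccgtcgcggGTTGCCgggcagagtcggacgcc
BBS1: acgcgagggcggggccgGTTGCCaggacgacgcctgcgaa
BBS5: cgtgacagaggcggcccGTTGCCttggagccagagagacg
BBIP1: tctcaccGTTACCcggGGCAACagctgagc

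In TTC8 the first letter of this half-site was 34 bases before the inner start, and its middle was 18.5 bases from the peak summit. The half-site of the outer TTC8 window lay outside the peak, with its first letter 149 bases before the outer start. In BBS5 the half-site began 14 bases before the start, and in BBS1 it began 1 base after it. The half-sites of BBS1, BBS5 and the inner TTC8 window thus lay close to a start, with the same 6 letters in the same direction, while that of the outer TTC8 window read GTTGCT in the other direction. A peak was called at TTC8 and none at BBS1 or BBS5. Most genes with a half-site had none: of 7399 such genes, 123 (1.66%) had a Nutlin-3a peak within 10 kb, beside 213 of 19906 (1.07%) without a half-site. BBS1 also held the longer form GTTGCCA, which 6.75% of all windows hold as GTTGCCA or GTTGCTA. The TTC8 half-site in the peak did not, and the one in the outer window did, as GTTGCTA.

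BBIP1 held the fullest X-box of the 9 windows and no peak. Its inner window had GTTNCC followed, after 3 bases, by the inverted copy GGNAAC, beginning 16 bases after the start at base 110919180. The GGCAAC in it is the half-site counted for BBIP1 above. Such a pair, with 0 to 3 bases between its copies, was present in 260 of 35116 windows (0.740%, interval 0.656 to 0.836%). None of the 130 windows that overlapped a Nutlin-3a peak held it, which limits the share to 2.31%. The half-site itself was in 77 of those 130 windows (59.2%, interval 50.6 to 67.3%). Their median GC content was 65.3%, beside 58.7% over all windows, and its part in these shares was not tested. In the BBSome windows the median was 60.3%, with 57.3% in the TTC8 window under the peak and 36.0% in the other.

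**Figure D3:**
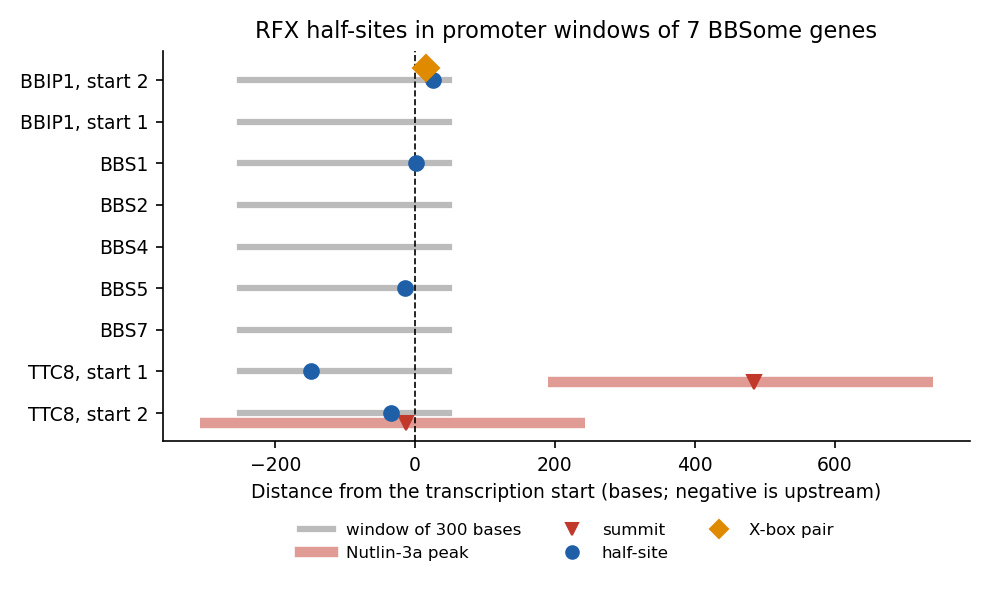
Positions of RFX half-sites (blue circles) and of the X-box pair (orange diamond) in the 9 promoter windows of 7 BBSome genes (grey bars), as distance in bases from each transcription start (x axis). The Nutlin-3a peak (red bar) and its summit (triangle) are drawn against both TTC8 starts, and the summit lies 13 bases before the inner start and 485 bases after the outer one.

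Other genes of the cilium were read from lists of known components. Of 107 such genes, 1 (0.935%) had a Nutlin-3a peak within 10 kb and 0 a DMSO peak, beside 1.35% and 0.0649% of protein-coding genes. None of the 20 genes for recruiting and regulating the BBSome (ARL6 and CEP290 among them), the 11 for the chaperonin that assembles it (MKKS, BBS10 and BBS12 among them), or its 8 cargo genes (SMO and SSTR3 among them) had a peak. The 6 genes of intraflagellar transport complex A and the 17 of complex B, which carry the BBSome along the cilium, had none, nor did 10 motor genes or 16 genes of motile cilia. The gene with a peak was B9D1, 1 of 22 genes of the transition zone, the gate at the base of the cilium. Its peak (chr17:19362438-19362736) was weaker than that of TTC8, at 4.75-fold (rank 196) and −log10 p of 16.6 (rank 777), with the summit 99 bases from a B9D1 start. The peak overlapped 2 windows, of B9D1 and of LOC105371573. The window of the other B9D1 start, at base 19377913, did not overlap it. No half-site by the definition above was found in either of the 2 B9D1 windows. The looser letters GTTNCC or GTTNCT were present in at least 1 of them.

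**Figure D4:**
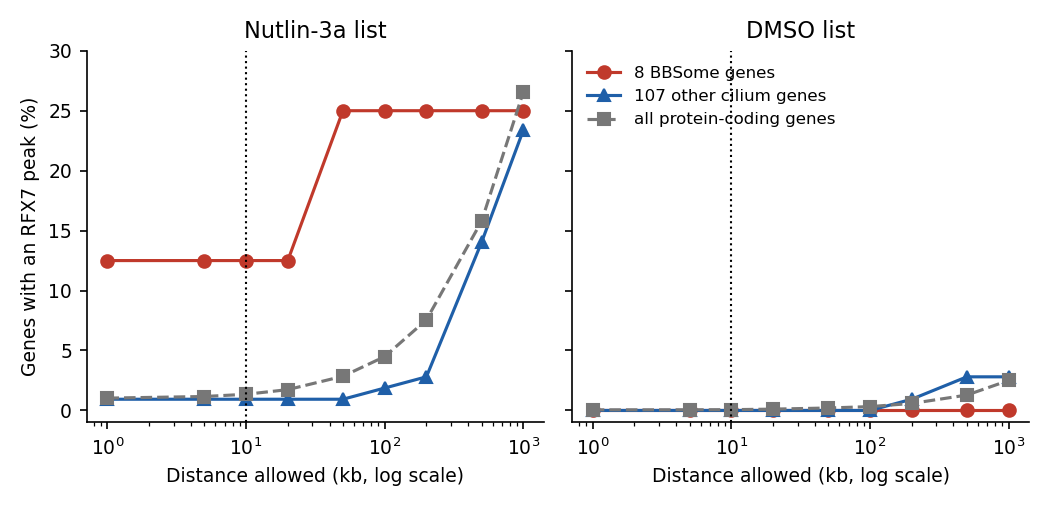
Share of genes (y axis, %) with a peak no farther from the gene body than the distance on the x axis (kb, log scale), for the Nutlin-3a list on the left and the DMSO list on the right, with a dotted line at 10 kb. The 8 BBSome genes (red) stand at 12.5% up to 20 kb through TTC8 alone and at 2 of 8 from 50 kb through BBIP1, while the 107 other cilium genes (blue) stand at 0.935% within 10 kb and all protein-coding genes (grey) at 1.35%.

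In the other cilium genes the letters were more frequent than over all genes. For peaks the count was too small to compare: 1 of 107 (0.935%) had a Nutlin-3a peak within 10 kb, beside 1.35% of protein-coding genes. For letters, all genes are the 27305 with a promoter window, noncoding ones among them. Of 92 other cilium genes with a promoter window, 49 (53.3%) held a half-site, beside 27.1% of all genes. The X-box pair was in 9 (9.78%), beside 0.905%. These 9 were ARL6, IFT122, IFT70A, RAB3IP, SPAG16, TCTN1, TCTN3, TMEM107 and TMEM17, and none had a Nutlin-3a peak within 10 kb. With BBIP1, 10 cilium genes thus had the pair and no peak. Over all 247 genes with the pair, 9 (3.64%) had a peak within 10 kb, beside 1.21% of the 27058 genes without it. At none of these 9 did a peak overlap a window that held the pair. The difference in shares was not tested.

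The peaks named here as closest to that of TTC8 in rank were not at cilium genes. Just above it in fold enrichment were peaks 8428 bp from YWHAG (19.8-fold) and 8195 bp from BBC3 (17.3-fold), and below it was a peak whose nearest protein-coding gene was AZIN1 (14.8-fold, 15192 bp). Likeness to the TTC8 peak was also measured as the distance in 3 ranks, by fold enrichment, −log10 p and width, over the 196 other Nutlin-3a peaks within 1 kb of a protein-coding gene. The most alike were at VCP (12.1-fold, −log10 p 134), CKAP2 (9.65-fold, 138), DIP2A (23.8-fold, 262), RCL1 (11.7-fold, 126) and UBB (22.2-fold, 320). None of these 5 overlapped a DMSO peak, as was the case for TTC8. This does not set them apart, since only 13 of 20037 protein-coding genes had a DMSO peak within 10 kb. VCP is an ATPase that extracts proteins for degradation, CKAP2 a protein of the mitotic spindle and UBB a ubiquitin gene.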

How the data were processed

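RFX7 ChIP-seq of RPE-1 cells was analysed from 2 peak lists in narrowPeak layout, 1 per treatment. The submitters' processing notes name the build hg38 and, among the tools, MACS2 2.2.7.1 and bedtools 2.29.2. The aligner, the control and the way replicates were combined are not given in the sources used here. The fold enrichment, the −log10 p, the −log10 q and the score of each peak were deposited by the authors, and these values were used within their own list only. The score was not used. Depth is unknown. Genes and promoter windows (250 bases before to 50 after a start) came from RefSeq tables of GRCh38.p14. A gene had a peak when any base of it lay within 10 kb of the gene body. Shares carry 95% Wilson intervals, which cover counting error only, and the limit for a count of 0 is 3 counts of the total. Letters were searched on both strands. Distances and letter searches were tested on simulated data, with python 3.11.15 and pandas 2.3.3.

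The genes, lists and letters were chosen with earlier results of these data known. Named are the 8 genes, list genes with a peak, 2 peaks on either side of TTC8 by fold enrichment and the 5 most alike, of which 1 is not named here. Of 116 symbols in the other cilium lists, AZI1 and TTC30B matched no gene alone, and older names of a gene already listed were counted once.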

Additional observations from a re-analysis of the deposited data

How the results depend on the processing

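No paired analysis was possible because the lists hold no values of single replicates, and for that reason none could be left out. The TTC8 peak was the peak counted for the BBSome in the Nutlin-3a list within 1 and 5 kb, with −log10 q of at least 5, by summit, by gene start and outside dense regions. Within 50 and 100 kb the count was 2, with BBIP1 added. The DMSO count was 0 under all 8 alternatives. For the other cilium genes the Nutlin-3a count was 1 except within 100 kb, where it was 2. Protein-coding genes with a Nutlin-3a peak numbered 571 within 50 kb and 900 within 100 kb. In the DMSO list they numbered 41 and 64, and 6 by gene start. The TTC8 peak ranked 58 by −log10 p and by −log10 q, and 3 by fold enrichment among 123 peaks within 1 kb of a protein-coding gene end or start. Its ranks by −log10 p in part of the list, 7 of 425 outside dense regions and 5 of those 123, were chosen after seeing the data. It overlapped no DMSO peak by 1 base, by 50% of both peaks or by summits within 100 bp. With GTTNCC and GTTNCT, 9 of 9 BBSome windows held a half-site, beside 68.0% of all windows, and with 7 letters 2 did, beside 6.75%. Unknown depth limits every absence.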

Other observations

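The half-site in TTC8 lay nearer to its summit than most. Letters were read in promoter windows alone, so parts of each peak outside a window were not searched, and a distance is to the nearest half-site in a window. Of 99 Nutlin-3a peaks that overlapped a promoter window, 64 (64.6%) held a half-site in one, at a median of 67.5 bases from the summit (interquartile range 22.0 to 172), and in 11 of the 64 it was nearer than the 18.5 bases of TTC8. Of the 5 peaks most like that of TTC8, the one at RCL1 had a half-site at a similar distance, 19.5 bases. At VCP, CKAP2 and DIP2A it was 264, 199 and 283 bases away, and at UBB none was found in the 2 windows under the peak. These distances are across peaks of 1 list and were not tested.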
